A study of Homo sapiens with 8 samples.

Results

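TCP1, CCT2, CCT3, CCT4, CCT5, CCT6A, CCT7 and CCT8 encode the 8 subunits of CCT, the cytosolic chaperonin also called TRiC. They were picked by name as the parts of 1 complex and found by Ensembl identifier, which gave 8 of the 58395 genes listed for each library. All 8 passed the filter on low counts, as did 16503 genes in all. The question asked of them was whether the mRNAs of 1 complex share 1 polysome association.

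RNA came from OCI-AML3, an established human acute myeloid leukaemia cell line infected with lentiviral short hairpins. The libraries formed 4 groups of 2: polysome RNA labelled FBL knockdown (titles U, hairpin shFBL), polysome RNA labelled WT (titles CT, hairpin shCT), input RNA labelled FBL knockdown and input RNA labelled WT. The WT groups are called control below, since the protocol gives them a control hairpin. All groups carried a hairpin and all were held in cycloheximide at 100 µg/mL for 15 min, which keeps ribosomes on their mRNAs. Each lysate was split into 100 µL of input and 290 µL for a sucrose gradient collected in 14 fractions, so the 8 libraries stem from 4 lysates. The sources used here do not say which fractions made up polysome RNA, nor whether the lysates of a label came from separate infections. P-values therefore measure only how far these libraries differ, which may be technical.

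CCT consists of stacked rings in which each position is held by a different subunit, and it closes over a newly made protein so that the protein can fold inside. Actin and tubulin are its best known clients, and prefoldin hands such clients to it. The finished rings hold the subunits in equal amounts. Polysomes are mRNAs loaded with several ribosomes, and the share of an mRNA found there is a common measure of how much of it is being translated.

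The coding sequences of the 8 subunits differ in base composition, which goes with the results below, so 1 matching stretch is shown for each of 7 of them. Each stretch is 120 bases of the GENCODE v29 principal transcript (GRCh38 annotation, coding strand, 5′ to 3′), starting at the conserved loop that binds nucleotide, which was found by an in-frame search on the coding strand for codons of glycine, aspartate or glutamate, glycine and threonine in a row. Such a run was present in frame in 370 of 19498 coding sequences, 1.9%. Capitals mark G or C at the last position of a codon.
CCT7: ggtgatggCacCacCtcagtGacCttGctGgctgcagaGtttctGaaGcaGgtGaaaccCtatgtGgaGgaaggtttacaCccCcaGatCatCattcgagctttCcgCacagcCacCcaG
CCT5: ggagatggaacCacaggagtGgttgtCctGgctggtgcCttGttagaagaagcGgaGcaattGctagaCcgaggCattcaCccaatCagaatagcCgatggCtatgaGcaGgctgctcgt
CCT3: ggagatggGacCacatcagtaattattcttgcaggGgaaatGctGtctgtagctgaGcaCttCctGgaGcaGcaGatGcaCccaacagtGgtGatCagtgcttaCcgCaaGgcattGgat
CCT4: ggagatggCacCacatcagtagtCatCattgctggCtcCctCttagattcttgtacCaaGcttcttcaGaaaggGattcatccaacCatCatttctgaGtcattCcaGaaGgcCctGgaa
CCT6A: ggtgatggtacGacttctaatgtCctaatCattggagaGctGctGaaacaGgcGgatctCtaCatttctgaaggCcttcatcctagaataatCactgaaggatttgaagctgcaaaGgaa
CCT8: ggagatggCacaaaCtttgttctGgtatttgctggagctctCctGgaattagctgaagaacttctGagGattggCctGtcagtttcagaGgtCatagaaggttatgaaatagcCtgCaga
TCP1: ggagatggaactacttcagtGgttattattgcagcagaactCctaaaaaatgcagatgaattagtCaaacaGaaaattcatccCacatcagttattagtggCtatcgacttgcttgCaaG

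Of the 40 codons in each stretch, 25 ended in G or C in CCT7, 21 in CCT3, 19 in CCT4, 17 in CCT5, 13 in each of CCT6A and CCT8, and 8 in TCP1. Over the whole coding sequence the percentage of last codon positions with G or C, called GC3 below, was 57.7% in CCT7, 56.6% in CCT3, 50.4% in CCT5, 42.1% in CCT6A, 38.3% in CCT4, 33.9% in TCP1, 33.2% in CCT2 and 31.7% in CCT8. The coding sequences were alike in length, between 1596 and 1671 bases. The genes lie apart in the GRCh38 genome, TCP1 on chromosome 6 (159778498 to 159789749, minus strand), CCT2 on 12 (69585334 to 69601570, plus), CCT3 on 1 (156308968 to 156367873, minus), CCT4 on 2 (61868089 to 61888804, minus), CCT5 on 5 (10249921 to 10266412, plus), CCT6A on 7 (56051630 to 56063989, plus), CCT7 on 2 (73233420 to 73253021, plus) and CCT8 on 21 (29055805 to 29073797, minus).

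The libraries held 22171255 to 43118190 gene counts, and the 8 subunits together took 0.205% to 0.299% of them, with 2200 to 24702 counts for a single subunit in a single library. Levels are given as CPM, the counts scaled to library size, after TMM scaling. FBL, the hairpin's target, had 499 and 165 CPM in polysome RNA labelled knockdown, against 498 and 163 CPM in polysome RNA labelled control. In input RNA FBL had 253 and 84.2 CPM in the libraries labelled knockdown, against 250.0 and 88.1 CPM in those labelled control. FBL thus differed between library numbers 1 and 2 of every group and not between the labels, and groups are called labelled knockdown and labelled control for that reason. Of the cell markers, SPI1 stood at 743 to 1130.4 CPM and LYZ at 28.9 to 124 CPM, MPO reached at most 3.72 CPM, and CD3E was at 0 in all 8 libraries.

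Polysome RNA was compared with input RNA by edgeR's quasi-likelihood F test on all 8 libraries, averaged over both labels, with Benjamini-Hochberg adjustment over 16503 genes. The 8 subunits did not move together. CCT7, CCT5, CCT3, CCT2 and CCT4 were higher in polysome RNA and TCP1 was lower, while CCT6A and CCT8 did not pass an adjusted p of 0.05. The 5 higher subunits compare with 20.0% of all genes tested and the 1 lower subunit with 22.8%, and 42.9% of all genes passed in either direction. Among the 8159 genes of at least 10 CPM, a level that every subunit exceeded, 38.1% were higher and 27.7% lower. With a correction for GC content and length, chosen after the data were seen and described further on, 7 subunits were higher and 0 lower. That fit called 2200 of all 16503 genes higher and 2432 lower. Without the correction, the median log2 fold change was 0.46 over the 8 subunits, against −0.22 over all genes tested and 0.10 over those of at least 10 CPM. CPM are shares of a library, so a subunit's fold change is relative to the other mRNAs.

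CCT7, the eta subunit, had 665 and 567 CPM in labelled knockdown and 633 and 654 CPM in labelled control polysome RNA, against 285 and 292 CPM in labelled knockdown and 292 and 261 CPM in labelled control input RNA. All 4 polysome libraries lay far above all 4 input libraries. On the log2 scale polysome RNA exceeded input RNA by 1.16 (SE 0.08, adjusted p = 2.7e-06, edgeR), the highest of the 8.

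CCT5, the epsilon subunit, which can form rings of its own and in which a variant causes a hereditary sensory neuropathy, had 688 and 703 CPM in labelled knockdown and 582 and 552 CPM in labelled control polysome RNA, against 337 and 299 CPM in labelled knockdown and 373 and 354 CPM in labelled control input RNA. The polysome libraries again lay above the input libraries without overlap, and the labelled knockdown polysome libraries were the highest. On the log2 scale CCT5 was higher by 0.88 (SE 0.07, adjusted p = 5.7e-06, edgeR).

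CCT3, the gamma subunit, had 646 and 529 CPM in labelled knockdown and 614 and 592 CPM in labelled control polysome RNA, against 345 and 344 CPM in labelled knockdown and 313 and 327 CPM in labelled control input RNA. The lowest polysome library was labelled knockdown number 2, still above every input library. For CCT3 the log2 difference was 0.84 (SE 0.08, adjusted p = 1.5e-05, edgeR).

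CCT2 and CCT4 formed a middle pair. CCT2, the beta subunit, in which variants cause a congenital retinal disease, had 136 and 131 CPM in labelled knockdown and 134 and 123 CPM in labelled control polysome RNA, against 98.5 and 78.3 CPM in labelled knockdown and 109 and 94.7 CPM in labelled control input RNA. CCT4, the delta subunit, which like CCT5 can form rings of its own, had 268 and 235 CPM in labelled knockdown and 277 and 246 CPM in labelled control polysome RNA, against 184 and 165 CPM in labelled knockdown and 209.7 and 191 CPM in labelled control input RNA. Neither gene's polysome and input libraries overlapped, but the gap was narrower than for the first 3 subunits. The log2 fold change was 0.47 for CCT2 (SE 0.10, adjusted p = 0.003) and 0.46 for CCT4 (SE 0.08, adjusted p = 0.0013, both edgeR). In all, 5 subunits had every polysome library above every input library, a pattern held by 17.7% of all genes tested, and 0 had every polysome library below every input library, against 22.7%.

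CCT6A, the zeta subunit with a testis paralog CCT6B, had 455 and 344 CPM in labelled knockdown and 465 and 395 CPM in labelled control polysome RNA, against 453 and 359 CPM in labelled knockdown and 510.2 and 395 CPM in labelled control input RNA. The fractions overlapped almost fully, and library 1 was higher than library 2 in every group. The log2 difference was −0.05 for CCT6A (SE 0.12, adjusted p = 0.79, edgeR).

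CCT8, the theta subunit, had 200.4 and 231 CPM in labelled knockdown and 192 and 181 CPM in labelled control polysome RNA, against 246 and 215 CPM in labelled knockdown and 218 and 216 CPM in labelled control input RNA. Its fractions overlapped through labelled knockdown lysate 2, the 1 lysate of 4 with more CCT8 in polysome RNA. The log2 difference came to −0.16 (SE 0.08, adjusted p = 0.13, edgeR). With only genes of a mean of at least 10 CPM kept, it was −0.26 and passed (adjusted p = 0.016).

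TCP1, the alpha subunit and the founding member of the family, had 151 and 106 CPM in labelled knockdown and 117 and 117 CPM in labelled control polysome RNA, against 173 and 141 CPM in labelled knockdown and 177 and 165 CPM in labelled control input RNA. Only labelled knockdown polysome library 1 lay inside the input range, and TCP1 was lower in the polysome library of all 4 lysates. The log2 difference came to −0.42 (SE 0.12, adjusted p = 0.016, edgeR).

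**Figure D1:**
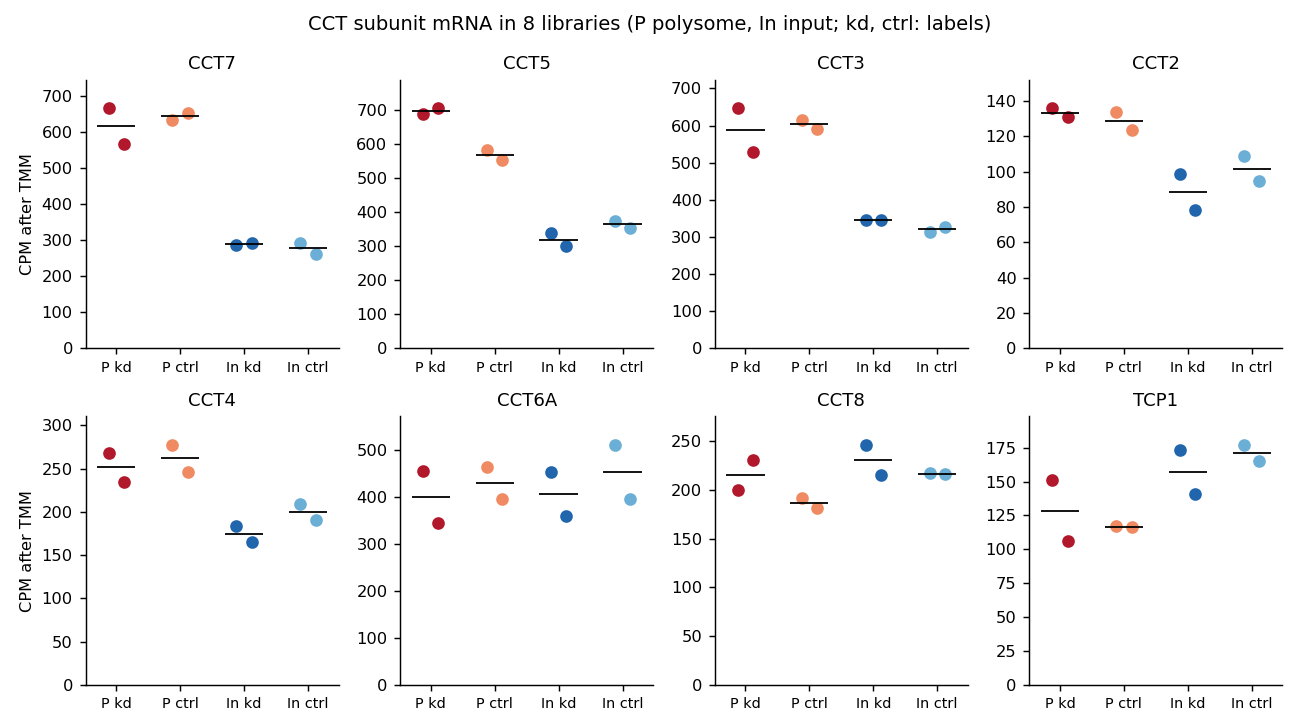
CPM after TMM scaling (vertical axis, from 0) of each subunit in 8 libraries, with polysome RNA labelled knockdown and control at the left of each panel and input RNA at the right. Points are libraries, with number 1 left of number 2, and lines are means of 2. CCT7, CCT5, CCT3, CCT2 and CCT4 sit higher in polysome RNA, CCT6A and CCT8 overlap, and TCP1 sits mostly lower.

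The same contrast was taken within each label. In the libraries labelled knockdown 5 subunits were higher in polysome RNA and 0 lower, against 14.2% and 14.3% of all genes tested and 28.5% in either direction, and against 28.0% higher and 20.5% lower among genes of at least 10 CPM. CCT5 led with a log2 fold change of 1.13, followed by CCT7 with 1.10, CCT3 with 0.77, CCT2 with 0.60 and CCT4 with 0.53. Without labelled knockdown input library 2, CCT2 (0.45, adjusted p = 0.082) and CCT4 (0.46, adjusted p = 0.056) no longer passed, which left 3. TCP1 had −0.29 (SE 0.16, adjusted p = 0.23). It passed as lower when the lysate was a block (−0.30, adjusted p = 0.021) and without labelled knockdown polysome library 1 (−0.57, adjusted p = 0.016, edgeR).

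In the libraries labelled control 4 subunits were higher and 1 lower, against 16.5% and 12.7% of all genes tested and 29.1% in either direction, and against 32.3% higher and 18.8% lower among genes of at least 10 CPM. CCT7 led there with a log2 fold change of 1.22, followed by CCT3 with 0.91, CCT5 with 0.64 and CCT4 with 0.39. CCT4 (adjusted p = 0.03) was lost with no filter (0.31, adjusted p = 0.06), with at least 10 CPM (0.23, adjusted p = 0.087) and without labelled control polysome library 1 (0.29) or any 1 of the 4 input libraries (0.25 to 0.38, edgeR). TCP1 was the lower one with −0.55 (SE 0.17, adjusted p = 0.031), and it no longer passed without labelled control polysome library 1 (−0.56), polysome library 2 (−0.56) or input library 1 (−0.58, edgeR). CCT2 had 0.34 (SE 0.14, adjusted p = 0.094), and it passed at the same value once lysates were blocked (adjusted p = 0.016, edgeR). CCT7, CCT3, CCT5 and CCT4 passed in both labels in the fit used, and CCT4 was lost under the alternatives named above.

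The ratio of polysome to input CPM within a lysate gave the spread of these values. CCT7 had log2 ratios of 1.22 and 0.96 in the labelled knockdown lysates and 1.11 and 1.33 in the labelled control lysates. CCT5 had 1.03 and 1.23 in the labelled knockdown lysates and 0.64 and 0.64 in the labelled control lysates. These were the highest subunits, and CCT5 had the largest SD over lysates of the 8 (0.29). Its labelled control lysates were alike and below its labelled knockdown lysates, so this SD includes the difference between labels. CCT3 had log2 ratios of 0.91 and 0.62 in the labelled knockdown and 0.97 and 0.86 in the labelled control lysates. CCT2 had 0.46 and 0.75 in the labelled knockdown and 0.30 and 0.38 in the labelled control lysates, and CCT4 had 0.55 and 0.51 in the labelled knockdown and 0.40 and 0.37 in the labelled control lysates. All 5 of these subunits were above 0 in all 4 lysates. CCT6A had log2 ratios of 0.01 and −0.06 in the labelled knockdown and −0.13 and 0.00 in the labelled control lysates, and none of the 4 lay far from 0. CCT8 had −0.30 and 0.10 in the labelled knockdown and −0.18 and −0.25 in the labelled control lysates. TCP1 had −0.20 and −0.41 in the labelled knockdown and −0.60 and −0.50 in the labelled control lysates, below 0 in all 4. CCT6A had the smallest SD over lysates, 0.07.

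The subunits' mean log2 ratios had an SD of 0.56 over the 8 subunits and a range of 1.58. A single subunit's SD over the 4 lysates averaged 0.16. Within single lysates the SD over subunits was 0.58 and 0.55 for labelled knockdown and 0.59 and 0.60 for labelled control. The subunits therefore differed from each other by more than any 1 of them differed between lysates. Of the 28 pairs of subunits, 22 stood in the same order in all 4 lysates and 20 had ranges that did not overlap. An exact sign-flip test over 4 lysates cannot reach p = 0.05, so no p is given for a pair. CCT6A, CCT8 and TCP1 were the 3 lowest in every lysate. CCT7, CCT5 and CCT3 were the 3 highest in 3 lysates, and CCT2 took the place of CCT3 in labelled knockdown lysate 2.

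Among neighbours in the order, only CCT4 and CCT6A were apart in every lysate, with a mean difference of 0.50 (SD 0.09, n = 4 lysates) and no overlap. CCT7 exceeded CCT5 by 0.27 (SD 0.41) and CCT3 exceeded CCT2 by 0.37 (SD 0.34), each in 3 of 4 lysates. CCT5 and CCT3 differed by 0.05 (SD 0.42) and CCT2 and CCT4 by 0.02 (SD 0.16), with either order in 2 lysates. CCT6A exceeded CCT8 by 0.11 (SD 0.21) and CCT8 exceeded TCP1 by 0.27 (SD 0.27), each in 3 of 4 lysates. Apart from the step between CCT4 and CCT6A, neighbours did not differ beyond their spread in every lysate.

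**Figure D2:**
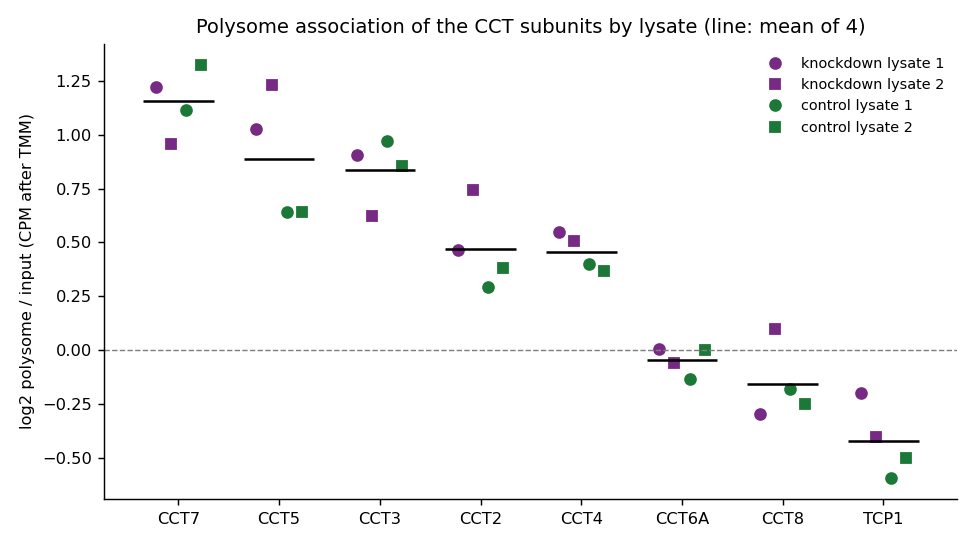
Log2 ratio of polysome to input CPM (vertical axis) for each subunit in 4 lysates, ordered by mean. Purple points are labelled knockdown lysates and green points labelled control lysates, and lines are means of 4. The widest clear step, 0.50, lies between CCT4 and CCT6A.

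The order of the subunits went with the base composition of their coding sequences. CCT7, CCT3 and CCT5, with GC3 over 50%, were the 3 subunits with the highest mean log2 ratios. Across the 8 subunits Pearson's r between the log2 fold change and GC3 was 0.82 and Spearman's rho was 0.76. Across the 7885 genes of at least 10 CPM with a coding transcript, r was 0.62 and rho 0.64. Other measures of composition went with the fold change as well: G or C over the whole transcript gave r of 0.74 over the subunits and 0.69 over all these genes, and G or C of the 3′ untranslated region gave 0.72 and 0.64, so the relation was not particular to last codon positions. These are descriptions over genes that share the same libraries and a range of base compositions, and genes are not independent replicates. The length of the coding sequence, of the untranslated regions and the number of upstream ATG triplets gave Pearson coefficients between −0.29 and 0.07 over the 8 subunits. GC3 did not part all of them: CCT2, with 33.2%, had a log2 fold change of 0.47, against −0.42 for TCP1 with 33.9%.

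The subunits were also set beside genes of like composition. Each was compared with the 422 to 692 genes whose GC3 lay within 2.5 percentage points of its own. All 8 lay above the median of those genes, by 0.30 for TCP1 up to 1.20 for CCT2, and 7 lay above the upper quartile, the exception being TCP1. CCT2 exceeded 99.1% of its comparison genes, CCT7 97.9%, CCT4 97.8% and CCT5 97.2%. CCT3 exceeded 93.0% and CCT8 90.3%, while CCT6A exceeded 79.2% and TCP1 71.3%. The SD over the 8 subunits was 0.34 for the distance to those medians, against 0.56 for the log2 fold changes themselves.

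**Figure D3:**
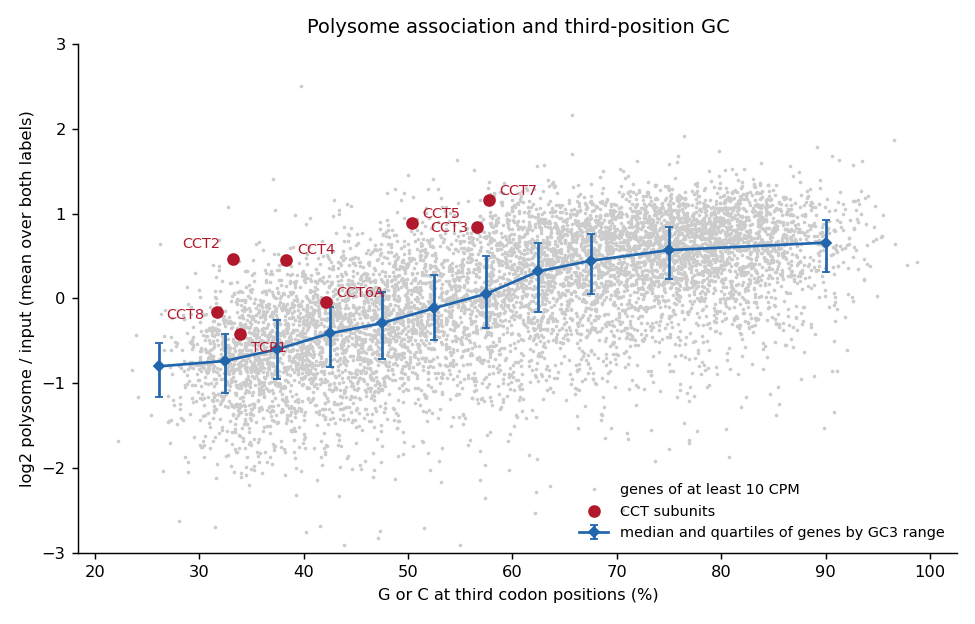
Log2 ratio of polysome to input RNA (vertical axis, edgeR, mean over both labels) against the percentage of G or C at last codon positions (horizontal axis). Grey points are 7885 genes, of which 6 fall outside the axis, blue diamonds and bars are medians and quartiles by range of GC3, and red points are the 8 subunits. All 8 red points lie above the blue median of genes with like GC3.

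With a correction for GC content and exon length in each library, chosen after the data were seen, the order changed. CCT5 then had a log2 fold change of 1.23, CCT7 1.02, CCT2 0.86, CCT4 0.79 and CCT3 0.74. CCT6A moved to 0.34 (SE 0.10, adjusted p = 0.031) and CCT8 to 0.31 (SE 0.08, adjusted p = 0.02, edgeR), both of which then passed. TCP1 stood at −0.01 (SE 0.09, adjusted p = 0.94). The SD over subunits was 0.41 with this correction. The SD between lysates was not computed on that scale.

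Levels were set side by side per kilobase of annotated exon, which takes account of differences in length. In polysome RNA CCT7 averaged 175 ± 12.3 CPM per kilobase, CCT3 148 ± 12.3, CCT5 108 ± 13.0, CCT6A 106 ± 14.4, CCT4 90.7 ± 6.90, CCT8 60.2 ± 6.35, CCT2 30.3 ± 1.26 and TCP1 24.9 ± 3.95 (SD, n = 4). In input RNA CCT7 averaged 78.6 ± 4.15 CPM per kilobase, CCT3 82.7 ± 3.77, CCT5 58.4 ± 5.37, CCT6A 110.0 ± 17.1, CCT4 66.2 ± 6.51, CCT8 67.0 ± 4.44, CCT2 22.0 ± 2.94 and TCP1 33.2 ± 3.30 (SD, n = 4). The levels of the 8 mRNAs as counted were thus unequal in both fractions and in a different order, with CCT7 first in polysome RNA and CCT6A first in input RNA. Reads over exon junctions can be lost in the alignment, and the part of such losses in these levels was not tested. The highest subunit exceeded the lowest by 6.05 to 7.70 times in the polysome libraries and by 4.62 to 5.19 times in the input libraries. Lengths bear on these levels: with the longest protein-coding transcript of each gene the ratio was 5.42 to 6.90 in polysome RNA and 3.52 to 4.47 in input RNA, and CCT3 led 2 of the 4 input libraries. CCT7 and TCP1 were the highest and the lowest in all 4 polysome libraries under both of these lengths. Per kilobase of coding sequence alone, CCT5 averaged 388 ± 46.6 and CCT7 386 ± 27.0 CPM in polysome RNA (SD, n = 4 each), so which of the 2 came first depended on the length used.

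The label was compared within each fraction. In polysome RNA 0 of the 8 subunits passed between labelled knockdown and labelled control, against 0.879% of all genes tested (0.248% higher and 0.630% lower), and 1 had an unadjusted p under 0.05. That subunit was CCT5, at 0.30 on the log2 scale (SE 0.09, adjusted p = 0.15, edgeR). It passed with DESeq2 (0.34, adjusted p = 0.02) and with no filter on low counts (0.37, adjusted p = 0.038, edgeR). Those fits called far more genes, 1203 of 16503 with DESeq2 and 1117 of 22560 with no filter. The remaining 7 subunits lay between −0.11 and 0.21. In input RNA 0 of 8 passed, against 0% of all genes tested with edgeR, 744 genes at an unadjusted p under 0.05, 76 genes with DESeq2 and 3 with limma-voom. The 8 log2 fold changes in input RNA ran between −0.20 and 0.11, and no subunit had an unadjusted p under 0.05. In bulk RNA a smaller share of cells that express a gene and less RNA per cell cannot be told apart.

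CCT5 had opposite directions in the 2 fractions. Both labelled knockdown libraries were above both labelled control libraries in polysome RNA and below them in input RNA. The difference between the fractions in their change with the label was 0.49 on the log2 scale (SE 0.13, unadjusted p = 0.0045, adjusted p = 0.76, edgeR), and it passed with DESeq2 (0.56, adjusted p = 0.038). Of all genes tested 0% passed this interaction with edgeR, 1046 had an unadjusted p under 0.05, and DESeq2 called 10. For the other 7 subunits the difference was between −0.14 and 0.26. Labels without overlap were also seen for CCT8 in polysome RNA, where labelled knockdown was higher, and in input RNA for CCT3, where it was higher, and CCT4, where it was lower. Among all genes tested 39.0% in polysome RNA and 41.4% in input RNA had labels without overlap, so 2 of 8 and 3 of 8 subunits are no more than the background.

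**Figure D4:**
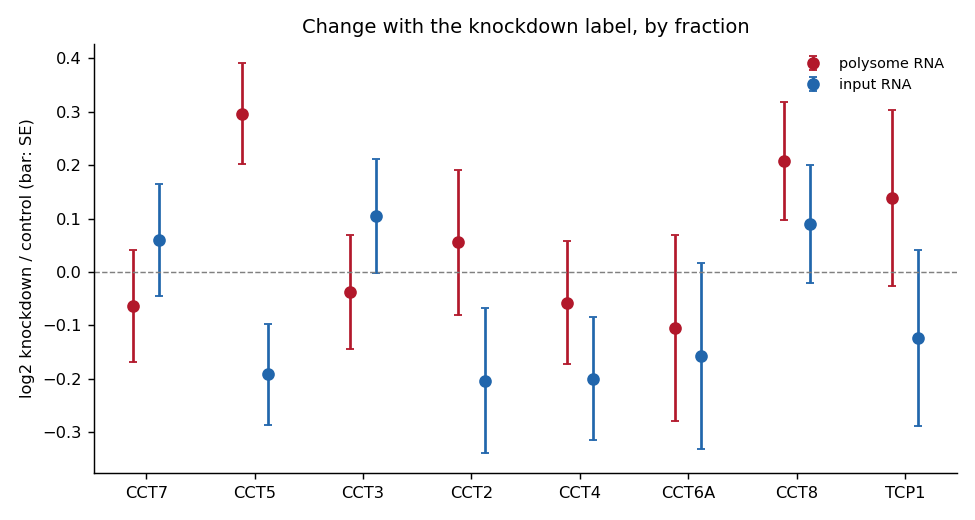
Log2 fold change of labelled knockdown over labelled control (vertical axis) for each subunit in polysome RNA (red) and input RNA (blue), with bars of 1 SE from edgeR. CCT5 has the highest red point, 0.30, and a blue point below 0. No point passed an adjusted p of 0.05.

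Some subunits differed with library number in the same direction as FBL, by much less. TCP1, CCT2, CCT4 and CCT6A were lower in library 2 than in library 1 in all 4 groups. The share of all genes with this pattern was not computed, so the count cannot be called particular to the subunits. For CCT6A the log2 ratio of library 2 to library 1 ran between −0.40 and −0.23, and for CCT4 between −0.19 and −0.14. For TCP1 it ran between −0.51 and −0.005. FBL had ratios between −1.61 and −1.50. The labels do not say what the numbers stand for, and their part in the subunits' levels was not tested.

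The proteins that work with CCT and the proteins it folds were looked at in the same contrast of polysome with input RNA. Of 9 co-chaperones, the prefoldin subunits and phosducin-like proteins, 3 were higher and 1 lower, with a median log2 fold change of −0.21. Of all genes tested 20.0% were higher and 22.8% lower, and of those of at least 10 CPM 38.1% and 27.7%. The share called in either direction was near the 42.9% of all genes. It was below the share of genes of at least 10 CPM, a level that all 9 exceeded, and this difference was not tested. PFDN6 averaged 182 ± 18.6 CPM in polysome RNA and 87.3 ± 15.2 CPM in input RNA (SD, n = 4 each), 1.08 apart on the log2 scale (adjusted p = 6.8e-06, edgeR). PFDN5 had 0.86, while VBP1, another prefoldin subunit, had −0.94 (adjusted p = 0.00042, edgeR) and the phosducin-like TXNDC9 −0.50 (adjusted p = 0.19, edgeR). Directions thus differed among prefoldin subunits, as they did among genes at large.

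Of 19 reported CCT clients, 17 were higher in polysome RNA and 2 lower, with a median log2 fold change of 0.92. Of all genes tested 20.0% were higher and 22.8% lower, and of those of at least 10 CPM 38.1% and 27.7%. Base composition was not taken into account for the clients or the other lists. TUBB4B, a beta tubulin, averaged 1368 ± 178 CPM in polysome RNA and 592 ± 58.0 CPM in input RNA (SD, n = 4 each), 1.20 apart on the log2 scale. The other tubulins were TUBA1A with 1.07, TUBA1C with 1.06, TUBA1B with 1.02, TUBB with 0.93, TUBG1 with 0.92 and TUBB6 with 0.39. The actins were closer to the input, ACTB with 0.27 (adjusted p = 0.0056) and ACTG1 with 0.23 (adjusted p = 0.0035, edgeR). WRAP53, a telomerase cofactor, had 1.15, and the 2 lower clients were STRAP with −0.71 and VHL, a ubiquitin ligase subunit, with −1.66. Tubulin genes are near copies of each other, and reads that match several of them can be lost or misplaced before counting.

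Other folding machines were read against the same shares, 20.0% higher and 22.8% lower of all genes tested. Among genes of at least 10 CPM the shares were 38.1% and 27.7%. Of 12 cytosolic HSP70 and HSP90 chaperones and partners, 5 were higher and 2 lower, with STIP1 at 0.99, HSP90AB1 at 0.95, ST13 at −0.27 and HSPA4 at −0.62 on the log2 scale. The mitochondrial chaperonin's parts went apart, with its lid HSPE1 at 0.65 (adjusted p = 0.00012) and its barrel HSPD1 at −0.30 (adjusted p = 0.018, edgeR). Of 3 other chaperonin-like genes tested out of 5, 1 was lower. All 3 were at low levels, with means of 0.61 to 2.29 CPM, and are too few to give a share.

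Other complexes served to read the spread among the subunits. Of 31 proteasome subunits 18 were higher and 7 lower, with a median of 0.39 and an SD of 0.64 over subunits on the log2 scale. Of all genes tested 20.0% were higher and 22.8% lower, and of those of at least 10 CPM 38.1% and 27.7%. PSMB6 stood at 1.36 and PSMB3 at 1.33, against −0.54 for PSMD14 and −0.55 for PSMC6. Of 13 subunits of the initiation factor eIF3, 5 were higher and 4 lower, against the same shares, with a median of 0.24 and an SD of 0.89. EIF3B stood at 1.08 and EIF3K at 1.06, against −0.90 for EIF3E and −1.69 for EIF3H. The SD of 0.56 over the 8 CCT subunits was below both of these and below the 0.76 found over the 8159 genes of at least 10 CPM, and these differences in spread were not tested.

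**Figure D5:**
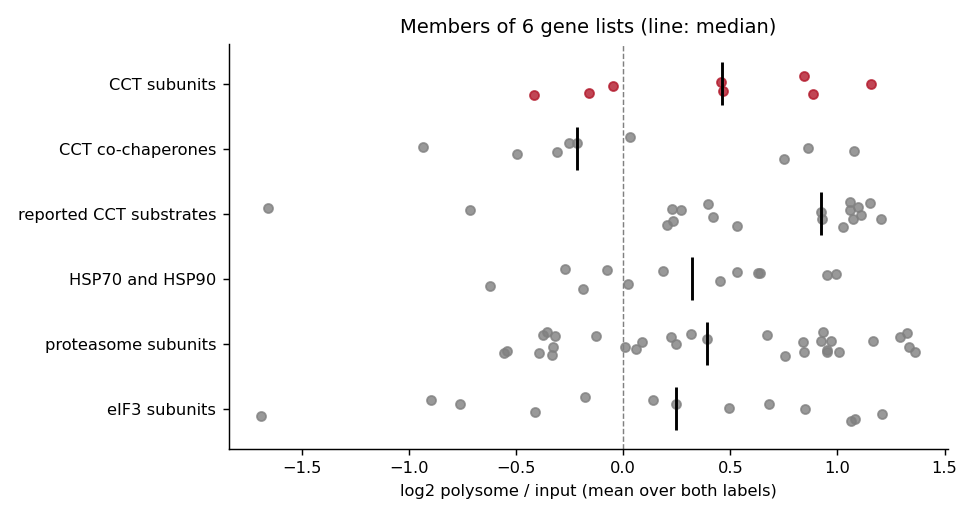
Log2 ratio of polysome to input RNA (horizontal axis, edgeR, mean over both labels) for the members of 6 gene lists, with the CCT subunits in red at the top. Points are genes and vertical lines are medians. CCT subunits run between −0.42 and 1.16, and each of the other lists also spans 0.

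The mean profile of the 8 subunits over the 8 libraries, each centred on its own mean of log2 CPM, was compared with 3669 other genes of at least 50 CPM. The closest were FBXO7 with a root mean square difference of 0.046, MDC1 with 0.051, HNRNPC with 0.052, BTK with 0.059 and STMN1 with 0.061. The subunits themselves stood between 0.068 for CCT4 and 0.42 for TCP1 from their own mean. The genes above were picked as the nearest of 3669 and the subunits were not, so these distances cannot be set against each other. CCT2, with 0.080, was the next closest subunit after CCT4.

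Related and overlapping genes held few reads beside the subunits, apart from a neighbour of TCP1. Of 15 pseudogenes and paralogs named after the subunits, 4 held any read, and the largest, CCT6P3, reached 4.98 CPM and at most 1.26% of the CCT6A counts. ACAT2 overlaps the exons of TCP1 on the other strand over 397 bases and had 19.7 to 33.5 CPM, up to 31.6% of the TCP1 counts. COMMD1 overlaps CCT4 over 81 bases and reached 9.46% of its counts. These counts cover whole genes and not only the overlaps. Reads that match several genes alike may be counted for none of them. Low counts therefore do not show that the subunits lost few reads. The labels do not say whether the counting used strand, and the part of these overlaps in the fold changes of TCP1 and CCT4 was not tested.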

How the data were processed

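Polysome and input RNA of OCI-AML3 cells was sequenced as 8 libraries in 4 groups of 2, grouped by the genotype label and the title. The values deposited are whole read counts for each gene. The submitters' processing notes name Trimmomatic 0.38, Bowtie2, whose version they do not give, HTSeq 0.11.2 and the build GRCh38. Bowtie2 does not split a read over an intron, so reads over exon junctions can be lost, which bears on levels between genes more than on ratios within a gene. Lines that name no gene held 13.2% to 15.0% of the reads and were left out. Of 58395 identifiers 58275 were in GENCODE release 29.

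Counts were tested with edgeR 4.0.16 (TMM, filterByExpr, glmQLFit and glmQLFTest on 4 group means, 4 residual degrees of freedom, Benjamini-Hochberg over 16503 genes, adjusted p under 0.05). With 2 libraries a group the spread was shared across groups. The fit was also run on simulated counts with the means and spread of these data, for the averaged contrast of polysome with input RNA only. Alternatives were DESeq2 1.42.0, limma 3.58.1 (voom), other scalings and filters, leaving out each library, the lysate or the library number as a block, and, added after the data were seen, an offset for GC and length. Ratios by lysate are log2 of CPM after TMM. R 4.3.3, Python 3.11.15 and matplotlib 3.10.9 were used.

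Input and polysome libraries with the same title number come from 1 lysate by the protocol. Deviations from the group means correlated between them with r = 0.36 in labelled knockdown and 0.31 in labelled control lysates, over 8159 genes. Libraries of a group differed beyond sampling noise (chi-square per degree of freedom 22.1 to 48.7). All 8 subunits are named. From other lists the 2 highest and 2 lowest by fold change with at least 10 CPM are named, plus actins and tubulins. The subunits and lists were chosen with earlier results of these data known. The stretch of 1 subunit and 1 cell marker are not reported here.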

Additional observations from a re-analysis of the deposited data

Results flagged for a closer look

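CCT5 moved in opposite directions with the label in the 2 fractions: in polysome RNA both libraries labelled knockdown exceeded both labelled control, and in input RNA both lay below. The change in polysome RNA minus the change in input RNA was 0.4875 on the log2 scale (SE 0.13, adjusted p = 0.76, edgeR). Without single libraries the value ran between 0.45 and 0.67. None of the 8 subunits had a lysate ratio that stood apart from the other 3 by Dixon's test, which chance passes in about 1 of 20 groups.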

How the results depend on the processing

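In the contrast averaged over both labels, the 5 higher subunits passed in all 8 fits that left out 1 library and under every other alternative, where 5 to 7 were higher. TCP1 was lower in all 8 as well, with log2 fold changes between −0.56 and −0.31, but the number of lower subunits was 2 with a mean of at least 10 CPM and 0 with the GC and length correction, alone or with the lysate as a replicate block. The median of all genes was −0.22 with the filter used, −0.52 with no filter and −0.02 with at least 10 CPM. With the GC correction, and in the second value with the lysate block too, CCT6A turned to 0.34 and 0.34 and CCT8 to 0.31 and 0.31. In labelled knockdown libraries CCT6A turned to 0.37 and 0.37, CCT8 to 0.37 and 0.36 and TCP1 to 0.14 and 0.13, and in labelled control libraries CCT6A turned to 0.31 and 0.31 and CCT8 to 0.25 and 0.25. The lower count in labelled control libraries was 0 with the GC correction, 0 with the block added and 2 with at least 10 CPM, and in labelled knockdown libraries it was 1 with the lysate block. CCT6A in labelled knockdown libraries also changed sign close to 0, at 0.042 with RLE scaling, 0.011 with upper quartile scaling, 0.042 with DESeq2, 0.013 with limma-voom and 0.0046 with only those libraries fitted. The lysate block alone changed no other call than those given. Added to the GC correction, it made CCT6A (adjusted p = 0.0004) and CCT8 (adjusted p = 0.0047) pass in labelled knockdown and CCT6A (adjusted p = 0.0021, all edgeR) in labelled control libraries, which gave 7 and 6 higher subunits. Of all 16503 genes, 1995 and 1933 were higher in those contrasts.

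Knockdown against control in polysome RNA gave 1 higher subunit, CCT5, with no filter, 1 with DESeq2 and 1 with the library number as a replicate block (0.30, adjusted p = 0.037, edgeR). In either direction these fits called 1117 of 22560, 1203 of 16503 and 1053 of 16503 genes. The number is shared by libraries whose common origin is not stated, and deviations of same-numbered libraries correlated with r = 0.18 in polysome and 0.47 in input RNA. The interaction gave 1, CCT5 again, with DESeq2 and 1 with the GC correction and lysate block, fits that called 10 and 13 of 16503 genes. Values near 0 changed sign in polysome RNA: CCT3 was 0.0049 with RLE, 0.044 with upper quartile scaling, 0.032 with no filter, 0.054 with at least 10 CPM, 0.0051 with DESeq2, 0.033 with only the polysome libraries and 0.0048 with the GC correction. CCT4 was 0.024, 0.012, 0.035 and 0.013, and CCT7 was 0.018, 0.0054, 0.028 and 0.0068, with upper quartile scaling, no filter, at least 10 CPM and only the polysome libraries.

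Leaving out 1 library at a time gave 3 to 5 higher and 0 to 1 lower subunits in labelled knockdown, and 0 to 1 lower in labelled control libraries. Signs changed within these ranges: CCT6A over both labels between −0.16 and 0.038, in labelled knockdown between −0.24 and 0.17 and in labelled control between −0.32 and 0.044, and CCT8 in labelled knockdown between −0.21 and 0.023. For the label in input RNA the ranges were −0.31 to 0.0065 for TCP1, −0.36 to 0.018 for CCT6A, −0.036 to 0.12 for CCT7 and −0.034 to 0.17 for CCT8. In polysome RNA they were −0.14 to 0.37 for TCP1, −0.19 to 0.10 for CCT3, −0.16 to 0.037 for CCT4, −0.32 to 0.083 for CCT6A and −0.18 to 0.048 for CCT7. For the interaction they were −0.013 to 0.51 for TCP1, −0.16 to 0.32 for CCT6A and −0.24 to 0.042 for CCT7. The cause of these changes was not tested. The SD over subunits was 0.55 to 0.58 without single lysates, 0.56 with a pseudocount of 2 counts and 0.41 with the GC correction. With 2 libraries a group, a subunit that did not pass between labels is not shown to be alike in them.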
